A study of Homo sapiens with 14 samples.

Results

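The genes of cholesterol and fatty acid synthesis were followed here in Mel202, a human uveal melanoma cell line, after treatment with ICG-001. The set holds 37 genes named by their role: the regulators of the sterol response, the enzymes of the mevalonate and sterol pathway with genes of sterol uptake and transport, and the enzymes that make, elongate and desaturate fatty acids. It was chosen with earlier results of these data known. Every array probe annotated to these genes was taken. Of the 37 genes, 32 had an annotated probe and all 32 were tested, among 11679 tested genes in all. FDFT1, NPC1L1, STARD4, ACSL3 and THRSP had no annotated probe, so they have no value here.

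Cells sense sterols in the membrane of the endoplasmic reticulum. When sterols are scarce, the escort protein SCAP carries the SREBP transcription factors, encoded by SREBF1 and SREBF2, to the Golgi, where they are cut free to enter the nucleus. INSIG1 and INSIG2 hold SCAP back when sterols are plentiful. SREBP2 is known for its action on the genes of cholesterol synthesis and SREBP1 for its action on those of fatty acid synthesis. The mevalonate pathway turns acetyl-CoA into isoprenoid units. These units become squalene and then sterols, and they also feed protein prenylation and coenzyme Q.

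Mel202 carries the alleles Q209L and R210K of GNAQ, which encodes the alpha subunit of a heterotrimeric G protein, and all 4 groups share this genotype. The treated groups received 3 µM ICG-001, a small molecule known to bind the coactivator CBP, for 24 h or 48 h. The control groups received DMSO, its solvent, for the same times. All cells were kept in their usual growth medium with bovine serum, and all values come from this 1 cell line. RNA was hybridised to Illumina bead arrays, 4 arrays for ICG-001 and 3 for DMSO at each time. In each group 1 title number was given to 2 arrays, told apart by a letter (a or b), and these were averaged. This left n = 3 for ICG-001 and n = 2 for DMSO at each time. The labels do not say that these replicates were separate cultures, so the p-values cover only the spread among these samples, and that spread may be technical.

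Values are log2 of the normalised signal of the brightest probe of a gene, and a probe's level was not set against another probe's. A change is ICG-001 minus DMSO on that scale, with the SE of the fit. Adjusted p-values come from limma corrected by Benjamini and Hochberg's method over all 11679 genes, two-sided, with a threshold of 0.05, and "rose" and "fell" are used only of genes past it. Between 17619 and 20124 probes per array were above background (detection p-value below 0.05). The arrays with the letter b, 1 in each group, had 17619 to 18332 such probes, and the other arrays had 18365 to 20124. Of 10 listed melanocyte markers 9 were tested, all but DCT, and all 9 were above background on 14 of 14 arrays. So were LUM, EMCN, CD68, BEST1 and CDH1 from marker lists of other cell types, so detection alone does not tell the lineage.

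At 24 h, 3 of the 32 measured genes rose and 5 fell, while 24 were not past the threshold. The 8 genes are 25% of those measured, against a background of 24.3% of all tested genes. The share that rose was 9.38%, against 13.7% of all genes, and the share that fell was 15.6%, against 10.5%. At 48 h, 4 genes rose and 8 fell, which is 37.5% of the 32 against 25.8% of all genes. Those that fell include FADS2, whose probe was not above background on any ICG-001 array at 48 h. The share that rose was 12.5%, against 14% of all genes, and the share that fell was 25%, against 11.7%. The median change of the 32 genes was -0.02 at 24 h and 0.01 at 48 h, beside 0.02 and 0.01 for all genes. Their median absolute change was 0.26 and 0.28, beside 0.27 and 0.28 for all genes, so the set as a whole had changes of about the size of the typical gene's.

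These counts moved with the replicates. Leaving out DMSO 48 h replicate 1 or 2 leaves 1 DMSO replicate at 48 h. In both of these fits fewer genes of the set were past the threshold at 48 h, with fewer that fell among them. The share of all genes past it was lower too. The share of the set that fell at 48 h thus depends on both DMSO 48 h replicates. At 24 h, 5 genes rose without DMSO 24 h replicate 1. The number that fell at 24 h was 3 without any of DMSO 24 h replicate 2, ICG-001 24 h replicate 1 or ICG-001 24 h replicate 3. Without the 4 arrays with titles ending in b, 7 genes were past the threshold at 24 h and 10 at 48 h.

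Both directions occurred along the pathway. SCAP, CYP51A1 and MSMO1 rose at both times, and ACAT2, MVK, LSS and EBP fell at both times. ELOVL1 was past the threshold at 24 h alone, and SREBF1, HMGCS1, IDI1, FADS1 and FADS2 at 48 h alone. The other 19 genes were past it at neither time. For each gene not past the threshold, the 95% interval of the change lay within 1 log2 unit of 0 on both sides, which covers 24 genes at 24 h and 20 at 48 h. The widest of these intervals, that of HSD17B7, ran at 24 h up to 0.83.

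**Figure D1:**
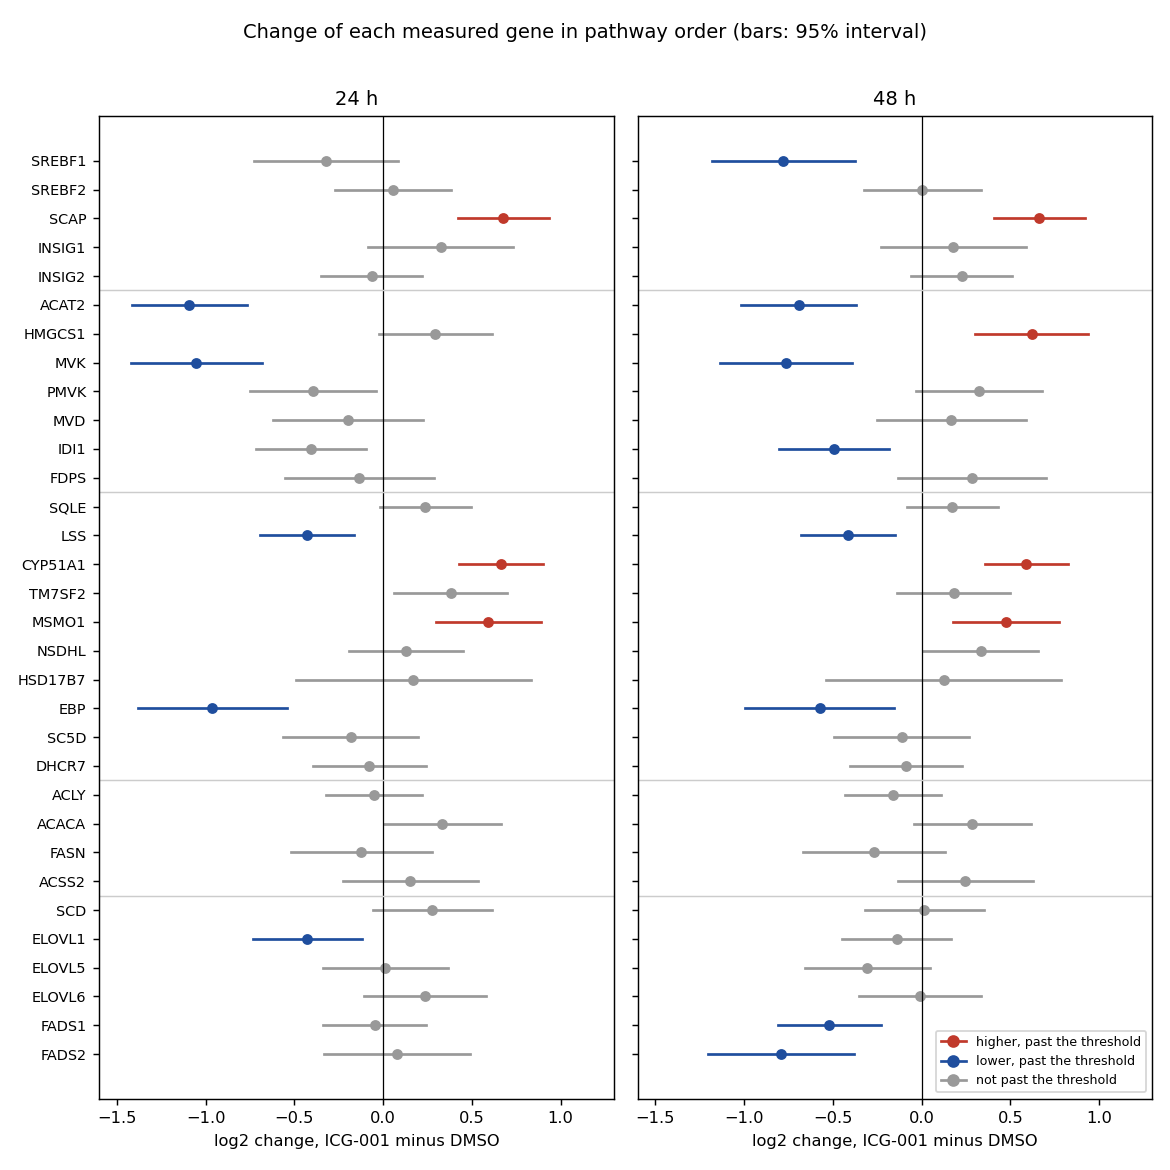
Change of each of the 32 measured genes, ICG-001 minus DMSO on the log2 scale, with 24 h on the left and 48 h on the right. Genes run down the page from the regulators to the mevalonate pathway, the sterol enzymes, fatty acid synthesis and elongation with desaturation. Points are changes, bars are 95% intervals, and colours mark genes past the threshold, blue (lower) and red (higher). The sterol block holds both colours at each time, and the mevalonate block holds blue at each time and red at 48 h alone (HMGCS1). Over all 32 genes the changes at 24 h ran from -1.09 for ACAT2 to 0.68 for SCAP.

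Among the 5 regulators, SCAP rose at both times and SREBF1 fell at 48 h. SCAP, the sterol sensor that escorts the SREBPs, had log2 signals of 10.41, 10.38 and 10.41 with ICG-001 at 24 h, against 9.79 and 9.65 with DMSO. At 48 h SCAP had 10.45, 10.45 and 10.26 with ICG-001, against 9.67 and 9.77 with DMSO. At each time every ICG-001 replicate lay above every DMSO replicate. SCAP was 1.6-fold higher at 24 h (0.68 ± 0.12 SE, adjusted p = 0.00264) and 1.58-fold higher at 48 h (0.66 ± 0.12 SE, adjusted p = 0.00256), and it stayed past the threshold under all 23 alternatives at both times.

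SREBF1, the gene of the SREBP1 factors, had 8.99, 9.26 and 9.01 with ICG-001 at 48 h, against 9.89 and 9.84 with DMSO. The groups did not overlap, and the gene was 1.72-fold lower (-0.78 ± 0.18 SE, adjusted p = 0.0106). At 24 h SREBF1 had 8.94, 9.51 and 9.19 with ICG-001, against 9.75 and 9.32 with DMSO, and the groups overlapped (-0.32 ± 0.18 SE, adjusted p = 0.227). A second SREBF1 probe was lower at both times, by -0.65 at 24 h (adjusted p = 0.0209 over all probes) and by -0.81 at 48 h (adjusted p = 0.00687). The call at 48 h on the brighter probe ended without DMSO 48 h replicate 1 (adjusted p = 0.0691) and without DMSO 48 h replicate 2 (adjusted p = 0.0501), with changes of -0.75 and -0.81.

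SREBF2, the gene of SREBP2, had dim signals that hardly moved. It had 5.70, 6.19 and 5.92 with ICG-001 at 24 h, against 5.80 and 5.96 with DMSO, and 5.66, 5.65 and 5.83 with ICG-001 at 48 h, against 5.69 and 5.74 with DMSO. Its change was 0.06 at 24 h (95% interval -0.27 to 0.38) and 0.00 at 48 h (-0.32 to 0.33). INSIG1, which retains SCAP and is itself a target of the SREBPs, had a change of 0.32 ± 0.19 SE at 24 h (adjusted p = 0.229) and of 0.18 at 48 h (adjusted p = 0.519). Without DMSO 24 h replicate 1 the change of INSIG1 at 24 h was 0.68 and past the threshold (adjusted p = 0.0172). Its DMSO replicates at 24 h lay far apart, at 11.11 and 10.40, and the ICG-001 values of 10.98, 11.09 and 11.18 lay between them or just above. A dimmer INSIG1 probe read lower with ICG-001, by -0.54 at 24 h (adjusted p = 0.194) and -0.84 at 48 h (adjusted p = 0.0508). INSIG2, the second retention protein, had a change of -0.07 at 24 h (adjusted p = 0.753) and of 0.23 at 48 h (adjusted p = 0.224).

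**Figure D2:**
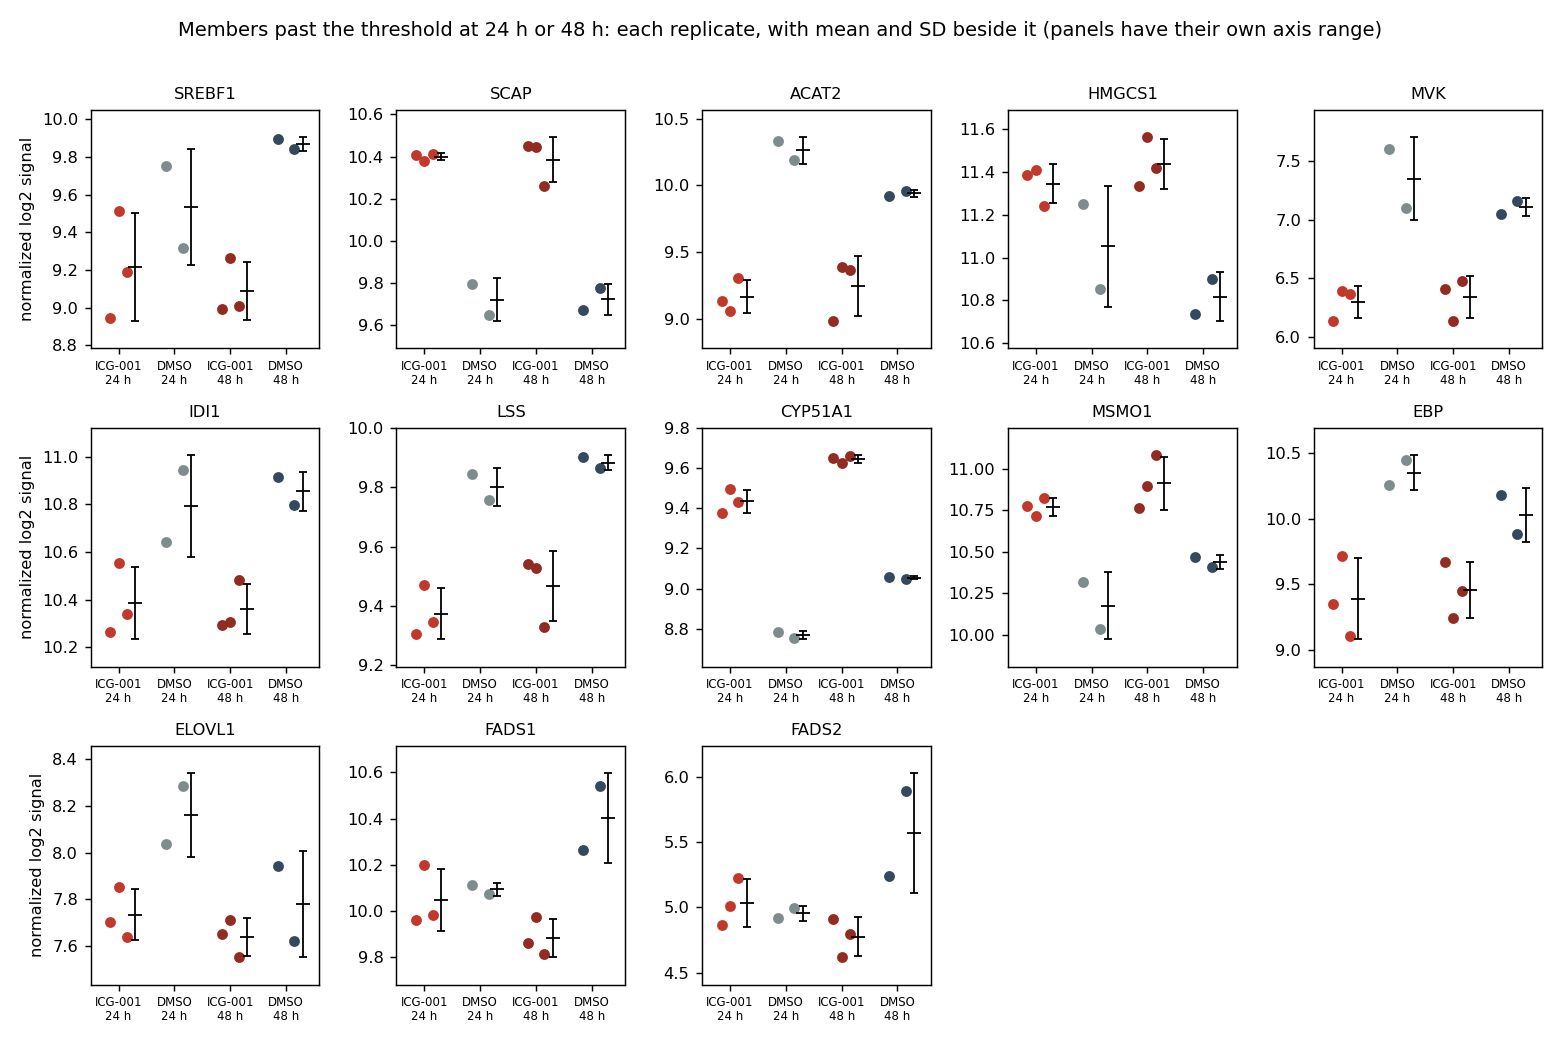
Normalised log2 signal of the 13 genes past the threshold at 24 h or 48 h, 1 panel per gene with its own axis range, in the order ICG-001 24 h, DMSO 24 h, ICG-001 48 h, DMSO 48 h. Points are replicates (n = 3 for ICG-001, n = 2 for DMSO), with the mean and SD beside them; the ACAT2 and MVK replicates with ICG-001 lie below all DMSO replicates at both times, and those of SCAP and CYP51A1 lie above them.

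In the mevalonate pathway, 2 of 7 measured enzymes fell at 24 h and none rose, and at 48 h 3 fell and 1 rose. The shares that fell were 28.6% at 24 h and 42.9% at 48 h, against 10.5% and 11.7% of all genes, and the share that rose at 48 h was 14.3%, against 14% of all genes. The median change of the 7 was -0.39 at 24 h and 0.17 at 48 h. ACAT2, the cytosolic thiolase that joins acetyl-CoA units at the start of the pathway, fell most at 24 h among all 32 genes. It had 9.14, 9.06 and 9.31 with ICG-001 at 24 h, against 10.33 and 10.19 with DMSO, a 2.13-fold lower level (-1.09 ± 0.15 SE, adjusted p = 0.000748). At 48 h ACAT2 had 8.99, 9.39 and 9.37 with ICG-001, against 9.92 and 9.96 with DMSO, and was 1.62-fold lower (-0.69 ± 0.15 SE, adjusted p = 0.00655). The groups were apart at both times, and the call held under all 23 alternatives at each time.

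MVK, the kinase that phosphorylates mevalonate, had 6.14, 6.39 and 6.36 with ICG-001 at 24 h, against 7.60 and 7.10 with DMSO. It was 2.07-fold lower (-1.05 ± 0.17 SE, adjusted p = 0.00176). At 48 h MVK had 6.41, 6.14 and 6.48 with ICG-001, against 7.05 and 7.16 with DMSO, and was 1.7-fold lower (-0.76 ± 0.17 SE, adjusted p = 0.00785). Every ICG-001 replicate lay below every DMSO replicate at both times. The change shrank to -0.42 at 24 h and -0.29 at 48 h in the authors' deposited table, where it was still past the threshold, and the call at 48 h ended without DMSO 48 h replicate 2 (-0.71, adjusted p = 0.0573).

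HMGCS1 makes HMG-CoA, the substrate of the rate-limiting step. It rose at 48 h, with 11.33, 11.56 and 11.42 with ICG-001, against 10.74 and 10.90 with DMSO. These groups did not overlap, and HMGCS1 was 1.54-fold higher (0.62 ± 0.15 SE, adjusted p = 0.0103). At 24 h the change was 0.29 (adjusted p = 0.166), and it was past the threshold there without DMSO 24 h replicate 1 (0.49, adjusted p = 0.0488). Without DMSO 48 h replicate 1 the change at 48 h was 0.54 and not past the threshold (adjusted p = 0.089). HMGCS1 thus moved upwards at 48 h beside ACAT2 and MVK, the enzymes of the step before it and of a later step, which fell.

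IDI1, which interconverts the isoprenoid building blocks, had 10.29, 10.31 and 10.48 with ICG-001 at 48 h, against 10.91 and 10.80 with DMSO. It was 1.41-fold lower (-0.50 ± 0.14 SE, adjusted p = 0.0248). At 24 h IDI1 had 10.26, 10.55 and 10.34 with ICG-001, against 10.64 and 10.94 with DMSO. The groups did not overlap there either, but the change of -0.41 was not past the threshold (adjusted p = 0.0565). It was past it in 9 of 23 alternatives at 24 h, among them the fits without DMSO 24 h replicate 1 (adjusted p = 0.037) and without ICG-001 24 h replicate 2 (adjusted p = 0.0463). The call at 48 h ended without either DMSO 48 h replicate, without ICG-001 48 h replicate 1 and without ICG-001 48 h replicate 2, with adjusted p from 0.066 to 0.148.

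The other mevalonate enzymes were past the threshold at neither time. PMVK, the second kinase of the pathway, had 8.84, 8.65 and 8.51 with ICG-001 at 24 h, against 8.86 and 9.26 with DMSO (-0.39 ± 0.16 SE, adjusted p = 0.0991). At 48 h PMVK had 8.88, 8.60 and 8.82 with ICG-001, against 8.55 and 8.33 with DMSO (0.32 ± 0.16 SE, adjusted p = 0.167). ICG-001 replicates were thus all below DMSO at 24 h and all above it at 48 h. The difference of these changes, 0.72 ± 0.23 SE, did not pass the correction (unadjusted p = 0.00939, adjusted p = 0.872), and without DMSO 24 h replicate 1 the 24 h change alone was past the threshold (-0.60, adjusted p = 0.0444). MVD, the decarboxylase, had changes of -0.20 and 0.17, and FDPS, which makes farnesyl diphosphate, of -0.13 and 0.28 at 24 h and 48 h, with adjusted p from 0.302 to 0.647.

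Of the 10 measured enzymes from squalene to cholesterol, 2 rose and 2 fell at each time, and they were the same genes: CYP51A1 and MSMO1 rose, LSS and EBP fell. Each direction thus took 20% of the 10, against 13.7% and 14% of all genes that rose and 10.5% and 11.7% that fell at 24 h and 48 h. LSS, lanosterol synthase, closes the first sterol ring system. It had 9.31, 9.47 and 9.35 with ICG-001 at 24 h, against 9.85 and 9.76 with DMSO, and 9.54, 9.53 and 9.33 with ICG-001 at 48 h, against 9.90 and 9.87 with DMSO. The groups did not overlap at either time, with LSS 1.35-fold lower at 24 h (-0.43 ± 0.12 SE, adjusted p = 0.0251) and 1.33-fold lower at 48 h (-0.42 ± 0.12 SE, adjusted p = 0.0262). Leaving out 1 of the DMSO 24 h replicates, or replicate 1 or 3 of ICG-001 at 24 h, ended the call at 24 h (adjusted p from 0.0627 to 0.0956). Leaving out 1 of the DMSO 48 h replicates, or replicate 3 of ICG-001 at 48 h, ended that at 48 h (adjusted p from 0.0781 to 0.131). The mean over both LSS probes was not past the threshold at either time (-0.25, adjusted p = 0.185 at 24 h and -0.35, adjusted p = 0.0719 at 48 h), and the 24 h call also ended with array weights (adjusted p = 0.0573) and with only the groups of the comparison in the fit (adjusted p = 0.0622). The second LSS probe was dim, above background on 5 of 14 arrays, which limits what that mean says.

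CYP51A1, the demethylase that acts on lanosterol, had 9.38, 9.49 and 9.43 with ICG-001 at 24 h, against 8.78 and 8.76 with DMSO. At 48 h it had 9.65, 9.62 and 9.66 with ICG-001, against 9.06 and 9.05 with DMSO. All ICG-001 replicates lay above all DMSO replicates, and CYP51A1 was 1.59-fold higher at 24 h (0.67 ± 0.11 SE, adjusted p = 0.00181) and 1.5-fold higher at 48 h (0.59 ± 0.11 SE, adjusted p = 0.00291). These narrow spreads came after averaging. On single arrays the gene read higher on the array ending in b than on its partner ending in a in all 4 pairs, by 0.86 for ICG-001 and 1.11 for DMSO at 24 h and by 1.02 for ICG-001 and 1.19 for DMSO at 48 h. That gap was the widest of the 32 genes in each pair, where the median absolute gap of the genes was 0.12 to 0.17.

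Compared among arrays of like title, CYP51A1 was higher with ICG-001 in each kind. At 24 h the array ending in a had 8.94 with ICG-001, against 8.20 with DMSO, and the array ending in b had 9.81 with ICG-001, against 9.31 with DMSO. At 48 h the arrays ending in a had 9.15 with ICG-001, against 8.47 with DMSO, and those ending in b had 10.17 with ICG-001, against 9.65 with DMSO. With every array as a replicate the call ended at both times (0.66, adjusted p = 0.12 at 24 h and 0.59, adjusted p = 0.162 at 48 h), as it did with the title number as a random block (adjusted p = 0.187 at 24 h and 0.238 at 48 h). Without the arrays ending in b the change was 0.80 at 24 h (adjusted p = 0.0371) and 0.72 at 48 h (adjusted p = 0.0517), and with the letter b as a term of the model both times were past the threshold (0.72, adjusted p = 0.00813 and 0.65, adjusted p = 0.0138). The part of whatever sets these arrays apart in the level of CYP51A1 was not tested.

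**Figure D3:**
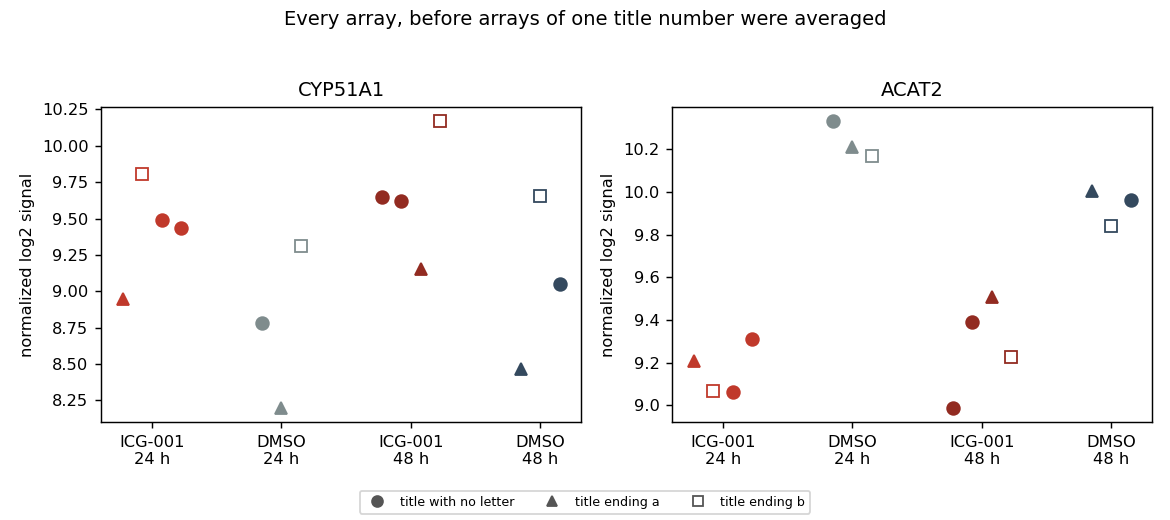
Normalised log2 signal of CYP51A1 and ACAT2 on each of the 14 arrays, in the order ICG-001 24 h, DMSO 24 h, ICG-001 48 h, DMSO 48 h; marker shapes give the letter of the array's title. For CYP51A1 the open squares (titles ending in b) lie above the triangles (titles ending in a) in all 4 groups, by 0.86 to 1.19, while for ACAT2 every ICG-001 array lies below every DMSO array whatever its letter.

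MSMO1, the oxidase that removes methyl groups from sterols, had 10.77, 10.71 and 10.82 with ICG-001 at 24 h, against 10.32 and 10.04 with DMSO. At 48 h it had 10.76, 10.90 and 11.08 with ICG-001, against 10.47 and 10.41 with DMSO. The groups were apart on this probe, and MSMO1 was 1.51-fold higher at 24 h (0.59 ± 0.14 SE, adjusted p = 0.0102) and 1.39-fold higher at 48 h (0.47 ± 0.14 SE, adjusted p = 0.0251). The other 2 probes of MSMO1 ran the other way. The more variable of them had a change of -0.32 at 24 h and of -0.98 at 48 h (adjusted p = 0.0997 over all probes), and the dimmest of -0.16 and -0.11. The mean over the 3 probes was 0.04 at 24 h (adjusted p = 0.914) and -0.21 at 48 h (adjusted p = 0.457), so the direction given for MSMO1 holds for its brightest probe alone. On that probe the call at 24 h ended without DMSO 24 h replicate 2 (adjusted p = 0.0866), and that at 48 h without either DMSO 48 h replicate or without ICG-001 48 h replicate 2 or 3 (adjusted p from 0.0536 to 0.122).

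EBP, the isomerase that shifts a double bond in the sterol ring, had 9.35, 9.72 and 9.10 with ICG-001 at 24 h, against 10.26 and 10.45 with DMSO. It was 1.95-fold lower (-0.96 ± 0.19 SE, adjusted p = 0.00526), and this call held under all 23 alternatives. At 48 h EBP had 9.67, 9.24 and 9.45 with ICG-001, against 10.18 and 9.88 with DMSO, and was 1.49-fold lower (-0.58 ± 0.19 SE, adjusted p = 0.0464). The groups did not overlap at either time. The call at 48 h sat close to the threshold and held in 13 of 23 alternatives. It ended without each of DMSO 24 h replicates 1 and 2, ICG-001 24 h replicate 1, DMSO 48 h replicates 1 and 2, and ICG-001 48 h replicates 2 and 3, with changes from -0.72 to -0.43 and adjusted p from 0.051 to 0.266, without the arrays ending in b (-0.53, adjusted p = 0.0611) and with scaling to the 75th percentile (-0.60, adjusted p = 0.0544).

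The remaining 6 enzymes of this branch did not pass the threshold. SQLE, squalene epoxidase, had changes of 0.24 (adjusted p = 0.164) and 0.17 (adjusted p = 0.302), although its replicates did not overlap at either time. TM7SF2, a sterol reductase, had 0.38 (adjusted p = 0.0799) and 0.18, and NSDHL, which acts beside MSMO1 in demethylation, had 0.13 and 0.33 (adjusted p = 0.119 at 48 h). SC5D, a sterol desaturase, had -0.18 and -0.11, and DHCR7, which acts at the last steps of the pathway, had -0.08 and -0.09. HSD17B7, a ketoreductase of the same demethylation, had the widest error of the set, since its DMSO replicates at 24 h were 8.68 and 10.09. Its ICG-001 replicates at 24 h were 9.71, 9.43 and 9.52, between the DMSO values, and the change of 0.17 ± 0.30 SE became -0.53 (adjusted p = 0.0485) without DMSO 24 h replicate 1 and 0.87 (adjusted p = 0.0117) without DMSO 24 h replicate 2.

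The promoters of 6 of the 7 genes that moved the same way at both times are shown here (ACAT2, which fell at both times, is named only), together with that of SREBF2. The 7 genes, which are enzymes of the pathway and the regulator SCAP, split in direction, with MSMO1 counted by its brightest probe alone. They were chosen after the values were seen. The windows are the 250 bases before the start of each gene, read 5′ to 3′ on the gene's strand, from RefSeq on build GRCh38.p14, and 33 of the 37 genes had an entry. Each window was searched on both strands for TCACNCCAC, a form of the sterol regulatory element, for CCAAT, the box bound by NF-Y, and for GGGCGG, the GC box. In the sequences below capitals mark TCACNCCAC and CCAAT, the second also as ATTGG where it lies on the other strand, and no match of these motifs overlaps another. The genes that rose at both times come first.
SCAP: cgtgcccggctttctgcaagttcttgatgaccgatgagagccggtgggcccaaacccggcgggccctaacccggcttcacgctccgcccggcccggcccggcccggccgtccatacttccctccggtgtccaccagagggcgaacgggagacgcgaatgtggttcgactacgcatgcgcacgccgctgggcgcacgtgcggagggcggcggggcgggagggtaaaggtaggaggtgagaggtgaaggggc
CYP51A1: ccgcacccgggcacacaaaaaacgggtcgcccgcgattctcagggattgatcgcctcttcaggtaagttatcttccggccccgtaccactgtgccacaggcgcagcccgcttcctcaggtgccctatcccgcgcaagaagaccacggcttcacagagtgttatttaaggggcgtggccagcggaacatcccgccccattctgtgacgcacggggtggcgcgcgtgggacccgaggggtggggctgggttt
MSMO1: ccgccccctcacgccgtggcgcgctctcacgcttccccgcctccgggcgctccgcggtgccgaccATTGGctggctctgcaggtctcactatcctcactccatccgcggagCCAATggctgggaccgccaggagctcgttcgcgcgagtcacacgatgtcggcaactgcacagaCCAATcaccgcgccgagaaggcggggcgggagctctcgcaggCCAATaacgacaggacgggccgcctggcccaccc
Of the genes that fell at both times, MVK, LSS and EBP follow.
MVK: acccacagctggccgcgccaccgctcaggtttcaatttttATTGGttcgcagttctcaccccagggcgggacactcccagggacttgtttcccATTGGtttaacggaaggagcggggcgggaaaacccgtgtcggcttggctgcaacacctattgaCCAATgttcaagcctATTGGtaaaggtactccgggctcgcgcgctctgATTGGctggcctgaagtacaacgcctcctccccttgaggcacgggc
LSS: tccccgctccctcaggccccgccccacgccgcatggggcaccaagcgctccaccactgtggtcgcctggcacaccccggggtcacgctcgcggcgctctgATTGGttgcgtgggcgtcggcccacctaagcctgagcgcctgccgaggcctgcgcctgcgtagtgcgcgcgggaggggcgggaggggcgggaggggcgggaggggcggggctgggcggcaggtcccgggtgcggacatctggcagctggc
EBP: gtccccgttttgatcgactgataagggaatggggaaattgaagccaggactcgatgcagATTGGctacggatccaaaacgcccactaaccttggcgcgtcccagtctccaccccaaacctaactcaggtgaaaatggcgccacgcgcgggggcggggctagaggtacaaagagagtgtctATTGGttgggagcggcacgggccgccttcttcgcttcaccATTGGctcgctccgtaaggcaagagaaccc
The last is SREBF2, the one gene of the set with TCACNCCAC in its window.
SREBF2: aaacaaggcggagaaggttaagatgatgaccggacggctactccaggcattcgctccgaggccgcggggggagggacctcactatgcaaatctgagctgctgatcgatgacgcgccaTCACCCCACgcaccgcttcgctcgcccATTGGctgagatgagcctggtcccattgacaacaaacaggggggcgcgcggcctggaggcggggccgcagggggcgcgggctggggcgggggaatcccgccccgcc

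The windows lie at chr3:47475942-47476191 (minus strand), chr7:92134478-92134727 (minus strand), chr4:165327419-165327668 (plus strand), chr12:109573544-109573793 (plus strand), chr21:46228775-46229024 (minus strand), chrX:48521558-48521807 (plus strand) and chr22:41832855-41833104 (plus strand). TCACNCCAC occurred in 1 of the 33 genes, SREBF2, at bases -133 to -125 from the gene's start, and in 1.09% of the 27305 genes of the table. CCAAT occurred in 25 of 33 genes (75.8%), against 37% of all genes, and GGGCGG in 29 of 33 (87.9%), against 46.2%. Among the genes that rose at both times CCAAT was found in 1 of 3, MSMO1 with 4 matches, and among the 4 that fell at both times in the 3 with a window, with 5 matches in MVK, 1 in LSS and 3 in EBP. SCAP and CYP51A1 had no CCAAT in this window, which says only that these letters are not there. A match is a description of the sequence, and the binding of a factor was not measured.

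None of the 4 measured enzymes that supply and build fatty acids passed the threshold at either time in limma on their brightest probe, and at an unadjusted p below 0.05 there was 1, ACACA at 24 h. FASN, the fatty acid synthase, had 13.06, 13.41 and 13.52 with ICG-001 at 24 h, against 13.72 and 13.18 with DMSO, and 13.52, 13.40 and 13.25 with ICG-001 at 48 h, against 13.69 and 13.62 with DMSO. The groups overlapped at 24 h and were apart at 48 h, with changes of -0.12 (adjusted p = 0.663) and -0.27 (adjusted p = 0.305). ACLY, which makes cytosolic acetyl-CoA from citrate, had changes of -0.05 and -0.16. ACSS2, which makes acetyl-CoA from acetate, had 0.15 and 0.25.

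ACACA, the carboxylase that makes malonyl-CoA, had 9.91, 10.10 and 10.03 with ICG-001 at 24 h, against 9.66 and 9.71 with DMSO, with a change of 0.33 ± 0.15 SE (unadjusted p = 0.0476, adjusted p = 0.129). Its replicates were apart at 24 h and overlapped at 48 h, where the change was 0.28 (adjusted p = 0.189). It was past the threshold at 48 h without ICG-001 48 h replicate 3 (0.43, adjusted p = 0.0406). A dimmer ACACA probe was higher at both times, with 0.49 at 24 h (adjusted p = 0.0311 over all probes) and 0.55 at 48 h (adjusted p = 0.0182). The mean over both probes was past the threshold at both times (0.41, adjusted p = 0.0465 and 0.41, adjusted p = 0.0435). Both ACACA probes thus had positive changes at both times.

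Of the 6 enzymes of elongation and desaturation, 1 fell at 24 h and 2 at 48 h, and none rose. The shares that fell were 16.7% at 24 h and 33.3% at 48 h, against 10.5% and 11.7% of all genes. ELOVL1, which elongates very long saturated chains, had 7.71, 7.85 and 7.64 with ICG-001 at 24 h, against 8.03 and 8.29 with DMSO (-0.43 ± 0.14 SE, adjusted p = 0.0474), and the groups did not overlap. At 48 h its change was -0.14 (adjusted p = 0.493). The 24 h call held in 11 of 23 alternatives. Leaving out 1 replicate ended it for DMSO 24 h replicate 2 (-0.30) and for each ICG-001 replicate of either time, with adjusted p from 0.0551 to 0.263, and it ended without the arrays ending in b (-0.37, adjusted p = 0.0739).

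FADS1, a desaturase of polyunsaturated fatty acids, had 9.86, 9.97 and 9.81 with ICG-001 at 48 h, against 10.26 and 10.54 with DMSO, and was 1.43-fold lower (-0.52 ± 0.13 SE, adjusted p = 0.0152). At 24 h FADS1 had 9.96, 10.20 and 9.98 with ICG-001, against 10.11 and 10.07 with DMSO, and the groups overlapped (-0.05, adjusted p = 0.833). Its 48 h call ended without DMSO 48 h replicate 2 (-0.38, adjusted p = 0.139). FADS2, the desaturase that acts before FADS1, had 4.91, 4.62 and 4.79 with ICG-001 at 48 h, against 5.24 and 5.89 with DMSO. Its probe was not above background on any of the 4 ICG-001 arrays at 48 h (detection p-values 0.12 to 0.36). FADS2 was past the threshold there (measured means 4.77 and 5.57, adjusted p = 0.011). With the lowest signal above background as a bound, it was 1.33-fold lower. That bound is not a lower limit, since the interval of the change ran from -1.20 to -0.38. The probe was above background on 3 of 14 arrays, the fewest that the filter keeps, and 2 of these were DMSO 48 h arrays. The group that FADS2 was called lower against thus helped it pass the filter. The DMSO 48 h group itself had only 2 of 3 arrays above background, and without DMSO 48 h replicate 2 the change was -0.47 (adjusted p = 0.118), while with scaling to the 75th percentile it was -0.56 (adjusted p = 0.0576). The size of this change and of its bound depends on the scale, since the change was -0.42 with an offset of 50 (adjusted p = 0.0169) and -0.18 in the authors' deposited table (adjusted p = 0.0462).

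SCD, the desaturase of saturated chains, had changes of 0.28 (adjusted p = 0.21) and 0.02. ELOVL5 had 0.01 and -0.31 (adjusted p = 0.186 at 48 h), with ICG-001 values of 10.70, 11.03 and 10.74 at 48 h, against 11.04 and 11.23 with DMSO. ELOVL6, which elongates palmitate, had 0.24 and -0.01. None of the 3 passed the threshold at either time, with adjusted p of 0.186 to 0.976 over both times.

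For 10 of the 32 genes more than 1 probe was measured, 12 further probes in all, and several disagreed with the brightest probe. The sign of the change was opposite on 6 of the 12 at 24 h and on 5 at 48 h. At 24 h 2 of the 12 were past the threshold over all probes, against 17.1% of all probes, and at 48 h 3 were, against 18.7%. These were SREBF1 (lower) and ACACA (higher) at both times and a dim ACSS2 probe at 48 h. The ACSS2 probe had 5.21, 4.89 and 5.57 with ICG-001 at 48 h, against 5.98 and 6.30 with DMSO (-0.92 ± 0.22 SE, adjusted p = 0.0169), and it was above background on 12 of 14 arrays. The other ACSS2 probes read 0.25 and 0.21 at 48 h, so for ACSS2 no direction is given. Further probes of SQLE, ELOVL6 and ACLY read -0.38, -0.53 and -0.52 at 48 h without passing the threshold.

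**Figure D4:**
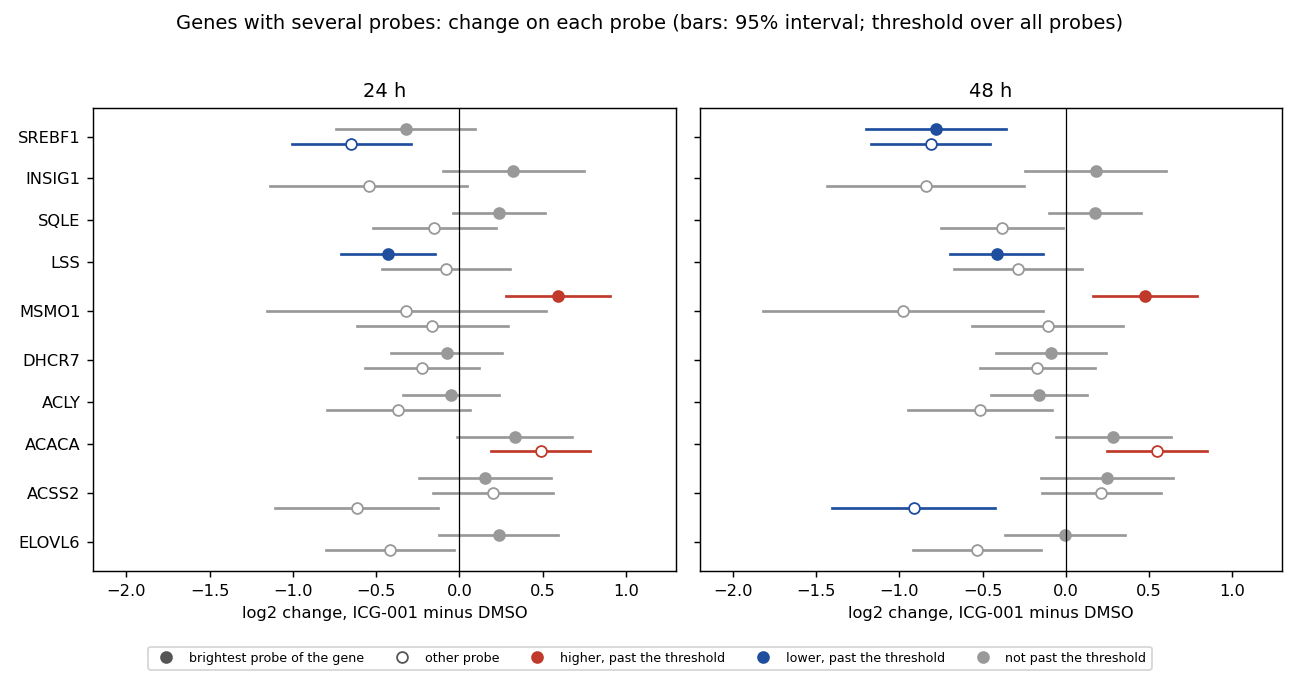
Change on each probe of the 10 genes with several probes, ICG-001 minus DMSO on the log2 scale, with 24 h on the left and 48 h on the right. Filled points are the brightest probe of a gene, open points its other probes, bars 95% intervals, and colours mark probes past the threshold over all probes: both SREBF1 probes lie below 0 and both ACACA probes above 0, while MSMO1 has its filled point above 0 and its open points below.

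The effects at both times were set side by side to ask whether the response changed with time. The difference of the effects, 48 h minus 24 h, was past the threshold for 0 of the 32 genes in limma and for 0% of the 11679 genes. At an unadjusted p below 0.05 there were 3 of 32 (660 of all genes), namely FADS1 (-0.47 ± 0.19 SE, adjusted p = 0.874), PMVK and FADS2, and past the threshold the count was 0 under every alternative. No size is given for FADS2, because its probe was above background on 1 of 4 ICG-001 arrays and 0 of 3 DMSO arrays at 24 h and on 0 of 4 ICG-001 arrays at 48 h. A gene past the threshold at 1 time and not at the other is therefore not shown to differ between the times. The sign of the change was the same at both times for 25 of the 32 genes (78.1%), against 78.3% of all genes.

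In DMSO alone, the 48 h cells were set against the 24 h cells. No gene of the set was past the threshold (0 of 32 in limma, against 0.0342% of all genes, of which 0.00856% were higher and 0.0257% lower, and 0 under every alternative), and 6 of 32 had an unadjusted p below 0.05, as did 961 of the 11679 genes. These were PMVK (-0.62 ± 0.18 SE), ELOVL5 (0.53), ELOVL1 (-0.38), TM7SF2 (-0.36), CYP51A1 (0.29) and FADS2 (higher at 48 h), with adjusted p from 0.525 to 0.599. No size is given for FADS2 here, since 0 of 3 DMSO arrays at 24 h and 2 of 3 at 48 h had it above background. Replicates at 48 h and 24 h did not overlap for 18 of 32 genes (56.2%), against 35.2% of all genes. With ICG-001 set against DMSO, there was no overlap of replicates for 14 of the 32 genes at 24 h (43.8%, against 51% of all genes) and for 21 at 48 h (65.6%, against 54.4%). For FADS1 the ICG-001 level was 9.88 ± 0.08 at 48 h and 10.05 ± 0.13 at 24 h (SD, n = 3 each), and the DMSO level was 10.40 ± 0.19 at 48 h and 10.09 ± 0.03 at 24 h (SD, n = 2 each).

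Neighbouring genes of sterol handling were listed by role and read the same way. Of 8 measured genes that process or degrade the regulators, 1 rose at each time and none fell. The share that rose was 12.5%, against 13.7% of all genes at 24 h and 14% at 48 h. MBTPS2, the protease that makes the final cut of the SREBPs, rose at 24 h (0.70 ± 0.15 SE, adjusted p = 0.00836). ERLIN2, a scaffold of sterol-regulated degradation, rose at 48 h (0.54 ± 0.12 SE, adjusted p = 0.00855). MBTPS2 had 8.66, 8.47 and 8.83 with ICG-001 at 24 h, against 8.08 and 7.83 with DMSO. Over the mean of its probes MBTPS2 changed by 0.39 and was not past the threshold, nor was it without DMSO 24 h replicate 2. ERLIN2 turned to -0.19 over the mean of its probes and ended without DMSO 48 h replicate 1.

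Among 8 measured genes of the LXR receptors and sterol efflux, 1 rose and 1 fell at 24 h, and 1 rose and 2 fell at 48 h. The shares past the threshold were 25% and 37.5%, against 24.3% and 25.8% of all genes. ABCA1, the pump that exports cholesterol and phospholipid, had 7.72, 7.63 and 7.56 with ICG-001 at 48 h, against 8.49 and 8.85 with DMSO, and was 2.05-fold lower (-1.03 ± 0.17 SE, adjusted p = 0.00161). It stayed past the threshold under all 23 alternatives, with a change of -0.64 in the authors' deposited table. At 24 h ABCA1 had 6.81, 7.28 and 7.28 with ICG-001, against 7.48 and 7.33 with DMSO. ABCA2, a related transporter, fell at 24 h (-0.91 ± 0.23 SE, adjusted p = 0.0161), except without DMSO 24 h replicate 2, and LPCAT3, which remodels phospholipids, fell at 48 h (-0.56 ± 0.16 SE, adjusted p = 0.0258). The LPCAT3 call ended without any 1 of the 5 replicates at 48 h (adjusted p up to 0.169). By contrast RXRB, the partner of the LXR receptors, rose at both times (0.61 and 0.58, adjusted p = 0.00509 and 0.00528).

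In intracellular sterol transport 2 of 13 measured genes rose at each time and none fell, a share of 15.4% that rose, against 13.7% of all genes at 24 h and 14% at 48 h. OSBPL2, an oxysterol-binding protein, rose by 0.56 at 24 h (adjusted p = 0.0141) and by 0.86 at 48 h (adjusted p = 0.00148), and GRAMD1A, which moves cholesterol out of the plasma membrane, by 0.55 and 0.43. The calls of OSBPL2 and GRAMD1A at 24 h ended without DMSO 24 h replicate 2, that of GRAMD1A also without ICG-001 24 h replicate 3, and that of GRAMD1A at 48 h, close to the threshold (adjusted p = 0.0445), held in 14 of 23 alternatives. Of 13 genes on the isoprenoid branches, 1 rose and 2 fell at 24 h, and 1 rose and 3 fell at 48 h. The shares past the threshold were 23.1% and 30.8%, against 24.3% and 25.8% of all genes. FNTA, a subunit of the enzymes that prenylate proteins, had 9.37, 9.63 and 9.24 with ICG-001 at 48 h, against 10.21 and 10.35 with DMSO (-0.87 ± 0.18 SE, adjusted p = 0.00611), and fell at 24 h (-0.88), except without DMSO 24 h replicate 2 (-0.77, adjusted p = 0.056). Of the coenzyme Q enzymes, PDSS2 rose (0.48 at 24 h and 0.86 at 48 h) and COQ2 fell (-0.48 and -0.45). The COQ2 call ended without any 1 of the 5 replicates at 48 h (adjusted p from 0.0531 to 0.209) and, at 24 h, without either DMSO 24 h replicate or without ICG-001 24 h replicate 1 or 3 (adjusted p from 0.0544 to 0.138). The PDSS2 call at 24 h ended without DMSO 24 h replicate 2 or without ICG-001 24 h replicate 2 or 3 (adjusted p from 0.0609 to 0.172), and the change of PDSS2 in the authors' deposited table was 0.21 at 24 h and 0.37 at 48 h.

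Among 15 further enzymes of fatty acid synthesis and elongation, 2 rose and 2 fell at each time. That was 26.7% of them, against 24.3% of all genes at 24 h and 25.8% at 48 h. TECR, the reductase that completes each elongation cycle, fell at 24 h (-0.61 ± 0.13 SE, adjusted p = 0.00695) and at 48 h (-0.82 ± 0.13 SE, adjusted p = 0.00135), with 11.23, 11.16 and 11.22 with ICG-001 at 48 h, against 11.95 and 12.10 with DMSO. ACACB, the carboxylase form at mitochondria, rose (0.59 at 24 h and 0.48 at 48 h). ACSL1, which activates long-chain fatty acids, rose (0.57 and 0.48), and SCD5, a second desaturase, fell at 48 h (-0.80). Of 19 genes of glycerolipid and phospholipid synthesis, 1 rose and 3 fell at 24 h, and 2 rose and 5 fell at 48 h. The shares past the threshold were 21.1% at 24 h and 36.8% at 48 h, against the same 24.3% and 25.8%. AGPAT2, an acyltransferase (-0.59 and -0.44), AGPAT1 (-0.49 and -0.47) and CHPT1, which makes phosphatidylcholine (-0.38 and -0.56), fell at both times. The CHPT1 call at 24 h was close to the threshold (adjusted p = 0.0469) and held in 9 of 23 alternatives. LPIN1, a phosphatidate phosphatase, rose at both times (0.57 and 0.61), and GPAT3, another acyltransferase, rose at 48 h (0.89). Among 19 genes of fatty acid oxidation, 3 rose and 3 fell at each time, which was 31.6% of them against those shares of all genes. HADHA, of the mitochondrial trifunctional protein (0.67 and 0.80), and ECI1, an isomerase (0.50 and 0.58), rose at both times. ETFA fell at both times (-0.59 and -0.43), SLC25A20 fell at 24 h (-0.57) and ACAA1 at 48 h (-0.45). The calls of AGPAT2 and ETFA at 24 h, of TECR at 48 h and of HADHA at both times held under all 23 alternatives, while each of the other calls named for these enzymes ended without at least 1 replicate. The change of GPAT3 was 0.47 without DMSO 48 h replicate 1 (adjusted p = 0.127), 0.57 with an offset of 50 and 0.24 in the authors' deposited table.

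Markers of the lineage moved as well. The summed linear signal of the 9 melanocyte genes was 48176 to 49325 with ICG-001, against 53392 to 57510 with DMSO, at 24 h, and 51593 to 51986 with ICG-001, against 56461 to 58564 with DMSO, at 48 h. In this sum the brightest probes, those of PMEL and TYRP1, weigh most. Neither gene was past the threshold at either time, with changes of -0.25 and -0.18 for PMEL and of 0.21 and 0.24 for TYRP1. At each time 4 of the 9 fell, namely SOX10, GPR143, SLC45A2 and RAB27A, and none rose, so that 44.4% fell, against 10.5% of all genes at 24 h and 11.7% at 48 h. In bulk RNA, fewer cells of a type and less RNA per cell cannot be told apart. Of the other marker lists, the fibroblast list had 2 of 8 genes tested, with a summed signal of 155 to 215 with ICG-001, against 602 to 604 with DMSO, at 24 h, and of 187 to 215 with ICG-001, against 780 to 867 with DMSO, at 48 h. In that list COL1A1 was above background on 5 of 14 arrays, and LUM, on 14 of 14, fell at both times. The retinal pigment epithelium list had 4 of 6 genes tested, with a summed signal of 781 to 920 with ICG-001, against 633 to 649 with DMSO, at 24 h, and of 1015 to 1112 with ICG-001, against 543 to 605 with DMSO, at 48 h. In it BEST1 (0.43 and 1.00) and TTR (0.74 and 0.56) rose at both times, and RLBP1 and LRAT were above background on 3 and 4 of 14 arrays. The immune list had 3 of 7 genes tested, with a summed signal of 908 to 1018 with ICG-001, against 1408 to 1409 with DMSO, at 24 h, and of 895 to 1094 with ICG-001, against 1340 to 1422 with DMSO, at 48 h, and CD68 fell at both times (-0.58 and -0.49). LYZ had changes the other way (0.49 and 0.30) and CD14 had -0.39 at each time, neither past the threshold. They were above background on 8 (LYZ) and 4 (CD14) of 14 arrays. The epithelial list had 1 of 6 genes tested, CDH1, which fell at both times (-0.78 and -0.74), with a signal of 68 to 124 with ICG-001, against 169 to 176 with DMSO, at 24 h, and of 202 to 275 with ICG-001, against 394 to 422 with DMSO, at 48 h. The endothelial list had 1 of 7 genes tested, EMCN, with a signal of 252 to 409 with ICG-001, against 363 to 409 with DMSO, at 24 h, and of 239 to 266 with ICG-001, against 261 to 341 with DMSO, at 48 h, and it was not past the threshold. The part of these markers in the changes of the lipid genes was not tested.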

How the data were processed

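Total RNA of the Mel202 line was measured on 14 bead arrays. The authors deposited 2 tables. The first gives, before normalization, an intensity for each of 47323 probes and, per the file headers, a detection p-value next to it. The second, deposited on a scale close to log2, holds 22579 probes and served as an alternative. The submitters' processing notes name lumi. Its version, its settings and the filter on probes were not given in the sources used here.

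For all results, neqc of limma (3.58.1, with R 4.3.3) corrected the background with the detection p-values, added an offset of 16, applied quantile normalization and took log2. A probe was kept where at least 3 arrays had a detection p-value under 0.05. This kept 22158 probes, including all 44 of the set. The brightest probe stood for each gene. Symbols came from the array annotation, brought up to date through RefSeq. Arrays of a shared title number were averaged, which left 10 replicates. A means model over the 4 groups was fitted with lmFit and eBayes (residual degrees of freedom 6, prior 5.16), with Benjamini-Hochberg adjustment. The steps were tested on simulated data. Precision is limited by the small number of arrays.

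Each measured gene of the set is named where ICG-001 is set against DMSO. Where 48 h is set against 24 h, the genes listed are those with an unadjusted p below 0.05. From each list of neighbouring genes up to 3 genes with the smallest p past the threshold at each time are named. The genes, lists and tests were chosen with earlier results of these data known. No gene list was tested as a list. Promoters were to be shown for genes past the threshold at both times whose window holds TCACNCCAC, and 0 genes met this. The bound given for FADS2 uses, on each array, the higher of the probe's own signal and the lowest signal among probes above background. It is not a lower limit of the change.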

Additional observations from a re-analysis of the deposited data

Results flagged for a closer look

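Of 64 sets of 4 ICG-001 arrays, 1 for each of the 32 genes and each time, 4 had an array set apart from the other 3 by a gap that took up most of the whole range (Dixon's test), which chance gives in about 1 of 20 sets. In ICG-001 cells at 24 h DHCR7 read 10.08 on array 3, against 9.63 to 9.68 on the others. At 48 h DHCR7 read 9.74 on array 3 (title ending in a), against 9.92 to 9.93 on the others. SREBF2 read 6.03 on that same array at 48 h, against 5.64 to 5.66 on the others. IDI1 read 10.63 on array 4 at 48 h (title ending in b), against 10.29 to 10.33 on the others.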

How the results depend on the processing

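Under each of 23 alternatives, SCAP and ACAT2 stayed past the threshold at both times, and MVK and EBP at 24 h. The 8 genes past the threshold at 24 h became 15, of which 8 rose, when the letter b was a model term. The number that rose at 24 h was 5 with every array as a replicate, and the number that fell was 3 with array weights and 3 with only the groups of the comparison in the fit. Leaving out 1 replicate gave 6 to 12 genes at 24 h, with 3 to 5 that rose and 3 to 7 that fell, and 4 to 12 genes at 48 h, with 2 to 4 that rose and 1 to 8 that fell. All genes tested moved with these settings too, from 13% to 23% past the threshold at 24 h and from 12% to 28.3% at 48 h without 1 replicate, and to 39.2% and 38.7% with the letter b as a term. Among changes past the threshold in either fit, the direction reversed for MSMO1 at 48 h (-0.21) and ERLIN2 at 48 h (-0.19) with the mean of the probes of a gene, and for HSD17B7 at 24 h (-0.53 without DMSO 24 h replicate 1, 0.87 without DMSO 24 h replicate 2); the cause was not tested. Some changes past the threshold in neither fit also turned sign, among them ERLIN2 at 24 h (-0.28), INSIG1 at 48 h (-0.33), ACSS2 at 48 h (-0.15) and SQLE at 48 h (-0.11) with the mean of the probes. The authors' deposited table gave smaller changes for dim genes, -0.42 for MVK at 24 h. No paired analysis was possible because each title number occurs in 1 group only. The counts rest on 2 DMSO replicates at each time, and FADS2 is limited by a signal close to background.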
